A study of Mus musculus with 22 samples.

Results

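Messenger RNA was compared between 2 mouse liver tumours labelled myc.lucOS.bcat and 3 labelled myc.lucOS.p53, all from the first of the study's 2 sets of libraries. They were found by the genotype at the end of the column names and make up 5 of the 22 tumours of the series. Both groups share Myc, the luciferase-antigen reporter lucOS, the C57BL/6 strain, delivery of the genes by hydrodynamic tail vein injection into the liver, and the absence of any treatment. They differ in the added driver, a β-catenin construct (bcat) in the lucOS bcat tumours and targeting of p53 in the lucOS p53 tumours, which sample names of the second set write as sgp53. The other 7 tumours of the first set carried luciferase without the antigen (luc), 4 with bcat and 3 with p53. In the second set, 3 lucOS bcat and 4 lucOS p53 tumours repeat the comparison in other samples. The labels give neither age, nor the promoter or form of the constructs, nor whether each tumour came from its own mouse, so p-values here measure the spread between tumour samples. The title of the series concerns immune escape of β-catenin-driven liver cancer, and in these 5 tumours the question is what the driver changes when the tumour carries an antigen.

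β-Catenin carries the canonical Wnt signal: when it is not degraded it enters the nucleus, binds TCF/LEF factors and switches on target genes, among them inhibitors of the pathway itself. In the healthy liver this signal is strongest around the central vein, where hepatocytes make glutamine and detoxify drugs, while hepatocytes near the portal vein make urea and glucose. p53 is a transcription factor that halts division or kills damaged cells, and T cells that recognise a presented antigen can kill tumour cells with granzymes and perforin.

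The values are the authors' normalized signal per transcript, in units of reads divided by 1 factor per tumour, and each gene is given by its transcript of highest mean. The 5 libraries held 33.706 M to 49.593 M reads over genes and detected 17307 to 18310 genes each. lucOS p53 tumour 2 stood between the groups. Across genes, its log2 values correlated at r = 0.927 and 0.920 with the lucOS bcat tumours and at 0.939 and 0.920 with the other lucOS p53 tumours, while those tumours, 1 and 3, correlated at 0.886 to 0.901 with the lucOS bcat tumours and at 0.936 with each other. The 2 lucOS bcat tumours correlated at 0.942. Of the genes called different (defined below), lucOS p53 tumour 2 was the lucOS p53 tumour nearest to the lucOS bcat tumours for 42.9%, tumour 1 for 33.5% and tumour 3 for 23.6%. These correlations are across genes, which are not independent replicates, and carry no test.

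Transcripts of the genes the drivers act on were examined first. Trp53, which encodes p53 (chromosome 11, 69580348 to 69591873, GRCm38), had 4994 and 3296 in the lucOS bcat tumours, against 1423, 1645 and 1922 in the lucOS p53 tumours. The groups did not overlap, and Trp53 was higher in the lucOS bcat tumours (log2 1.30, SE 0.24, adjusted p = 0.0214, n = 2 and 3). That call was lost without lucOS p53 tumour 1 (adjusted p = 0.0572) or lucOS bcat tumour 1 (0.0983). By the same test Trp53 was called higher in the lucOS bcat tumours of the second set (log2 0.95, adjusted p = 0.0237). It was also called higher in luc bcat than in luc p53 tumours (log2 1.27, adjusted p = 0.00346), a contrast that shares the estimate of spread. Ctnnb1, which encodes β-catenin (chromosome 9, 120933400 to 120960507), had 22465 and 16425 in the lucOS bcat tumours, against 23053, 25029 and 25685 in the lucOS p53 tumours. Both lucOS bcat values lay below all lucOS p53 values, and the gene was not called (log2 -0.35, adjusted p = 0.36). Myc (chromosome 15, 61985341 to 61990361) had 82.9 and 557 in the lucOS bcat tumours, against 189, 150.4 and 397 in the lucOS p53 tumours, with groups that overlapped (log2 -0.06, adjusted p = 0.978). Whether the counted transcripts include those of the injected constructs is not given in the sources used here.

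Of 16108 genes tested with limma, 678 were called at an adjusted p under 0.05, which is 4.21%. Among them 261 (1.62%) were higher and 417 (2.59%) lower in the lucOS bcat tumours. The cytochrome P450 genes Cyp2a5 and Cyp2e1 and the Wnt feedback genes Notum and Axin2 were among the higher genes, and the kidney gene Kl, the stem cell gene Trim71 and the serine dehydratase gene Sds among the lower ones. In all 678 called genes both lucOS bcat tumours lay on 1 side of all 3 lucOS p53 tumours, which was so for 37.8% of all tested genes. The median log2 difference of all tested genes was -0.15 and lay within 0.01 of 0 with TMM scaling, which divides by a robust mean of ratios between tumours. Under TMM 514 genes (3.19%) were called, 317 higher (1.97%) and 197 lower (1.22%), so the share of calls that were higher was 61.7% instead of 38.5%. All 458 genes called under both scalings had the same direction in both. The number of calls depended on single tumours: it was 951 (5.92%) without lucOS p53 tumour 2, 207 and 219 without lucOS p53 tumour 1 or 3, and 121 and 76 without lucOS bcat tumour 1 or 2. Fitted without the 7 luc tumours, which lend their spread to the test, 18 genes (0.116%) were called.

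**Figure D1:**
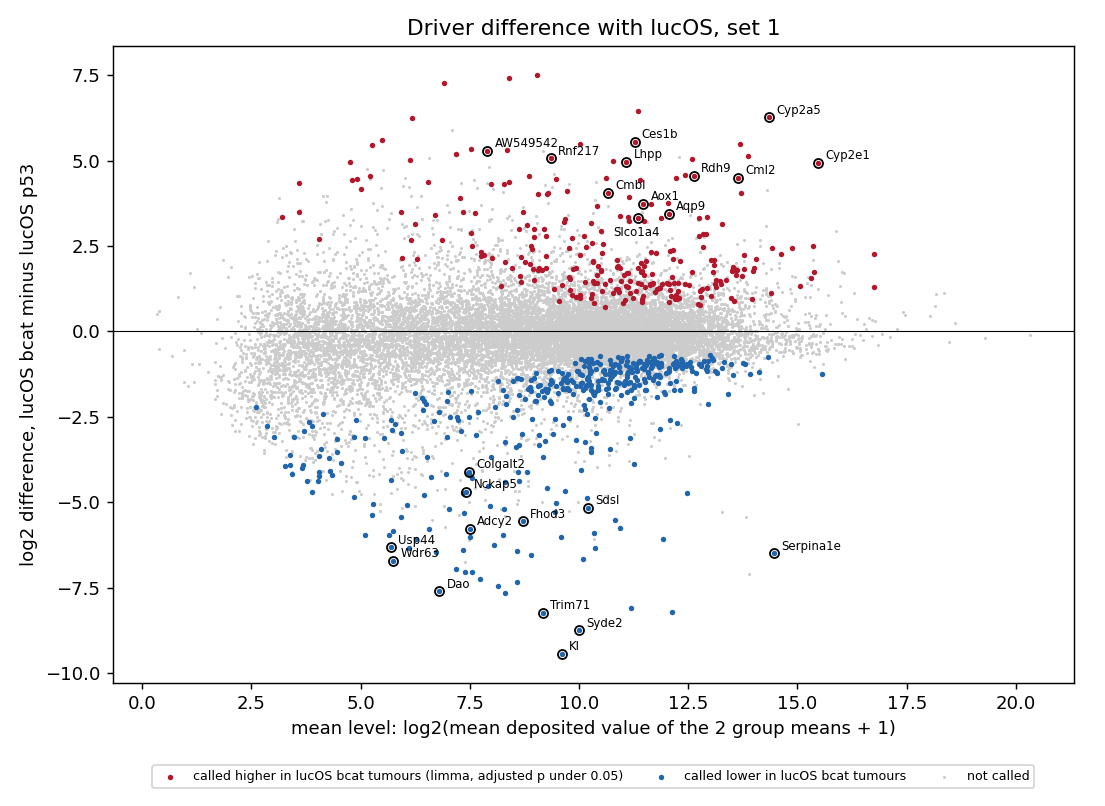
Log2 difference between lucOS bcat and lucOS p53 tumours of the first set (y axis, log2 of the value plus 1) against the mean level of the gene (x axis, log2) for the 16108 tested genes. Red points are the 261 genes called higher and blue points the 417 called lower by limma; the 24 circled genes are the named ones whose calls were kept with each lucOS tumour left out in turn, with Cyp2a5 highest among them at 6.27. Kl, Dao, Wdr63 and Usp44, at 0 in both lucOS bcat tumours, are drawn at their fitted values.

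The liver enzyme genes Cyp2a5, Cyp2e1 and Rdh9 rose and Kl and Trim71 fell in calls that did not hang on 1 tumour. In a limma fit of the 5 lucOS tumours alone, Cyp2e1, Rdh9 and Trim71 were still called (adjusted p = 0.0158, 0.0149 and 0.0345). Cyp2a5 and Kl were not called in that fit (0.0702 and 0.0744). A call was kept with each of the 5 lucOS tumours left out in turn for 30 genes, or 0.186% of those tested, 15 higher and 15 lower. The 12 per direction with the largest differences and an average of at least 50 in the higher group were named. The highest was Cyp2a5, a cytochrome P450 that oxidises coumarin and nicotine (chromosome 7, 26835339 to 26843264), with 55595 and 26904 in the lucOS bcat tumours, against 143, 949.9 and 927 in the lucOS p53 tumours (log2 6.27, SE 0.79, adjusted p = 0.00481). Its lowest lucOS bcat value lay above every lucOS p53 value by a wide margin, and within the lucOS p53 group tumour 1 was far below tumours 2 and 3. Cyp2a4 is a near-identical copy, so reads of the pair may be divided unevenly by the counting. Cyp2e1, the ethanol- and acetaminophen-oxidising P450 of pericentral hepatocytes (chromosome 7, 140763819 to 140774990), had 77849.9 and 99245 in the lucOS bcat tumours, against 2429, 2468 and 3896 in the lucOS p53 tumours (log2 4.94, SE 0.48, adjusted p = 0.00115). The 3 lucOS p53 values lay close together, as did the pair of lucOS bcat values. The retinol dehydrogenase gene Rdh9 had the smallest adjusted p of the 24, with 10920.3 and 13387 in the lucOS bcat tumours, against 458, 508 and 579 in the lucOS p53 tumours (log2 4.56, SE 0.30, adjusted p = 0.000106).

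Further enzymes and transporters rose in the same 5 tumours. Ces1b, a carboxylesterase that cleaves ester drugs and lipids, had 6496 and 3132 in lucOS bcat, against 35.8, 269.8 and 88.3 in lucOS p53 tumours (log2 5.55, SE 0.72, adjusted p = 0.00599). Aox1, an aldehyde oxidase, had 6425 and 4129.9 in lucOS bcat, against 313, 464 and 391 in lucOS p53 tumours (log2 3.74, SE 0.44, adjusted p = 0.00383). Cmbl, a hydrolase, had 2509 and 3584 in lucOS bcat, against 109.9, 212 and 243 in lucOS p53 tumours (log2 4.06, SE 0.44, adjusted p = 0.00201). These 3 genes each had a gap between groups larger than the range within either group on the log scale. Cml2, a camello-like acetyltransferase gene, had 28477 and 20577 in lucOS bcat, against 719.5, 1835 and 929.5 in lucOS p53 tumours (log2 4.50, adjusted p = 0.00192). Lhpp, a histidine phosphatase, had 6514 and 1922 in lucOS bcat, against 74.2, 86.6 and 219 in lucOS p53 tumours (log2 4.97, adjusted p = 0.00628), with the pair of lucOS bcat tumours several-fold apart. Uptake proteins were among the 12: the glycerol channel gene Aqp9 had 8299 and 7202 in lucOS bcat, against 525, 613 and 1091 in lucOS p53 tumours (log2 3.45, adjusted p = 0.00828). The organic anion transporter gene Slco1a4 had 5264 and 4242 in lucOS bcat, against 523, 468 and 422 in lucOS p53 tumours (log2 3.33, adjusted p = 0.00481). The others were Rnf217, a RING-type ubiquitin ligase gene (1187 and 1352 in lucOS bcat, against 23.2, 32.9 and 65.3 in lucOS p53 tumours, log2 5.06), and AW549542 (279 and 650.3 in lucOS bcat, against 8.04, 9.96 and 11.96 in lucOS p53 tumours, log2 5.30). For both, the lucOS bcat values were over 10 times those of any lucOS p53 tumour.

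On the lower side, 4 of the 12 genes had no read in either lucOS bcat tumour. Kl, which encodes klotho, the kidney co-receptor for FGF23 (chromosome 5, 150952607 to 150993817), had 611, 3918 and 137 in the lucOS p53 tumours and was at least 457-fold lower in the lucOS bcat tumours. The bound sets the mean of the lucOS p53 group against a floor of 3 reads per library, which covers counting error only, and for Kl it rests on lucOS p53 values of very different size. Dao, the D-amino acid oxidase gene, had 232, 92.6 and 339.6 in lucOS p53 tumours and was at least 65.01-fold lower. Wdr63, a dynein chain gene of motile cilia, had 107, 122 and 85.6 in lucOS p53 tumours and was at least 30.9-fold lower. Usp44, a deubiquitinase of the mitotic checkpoint, had 26.8, 172 and 106 in lucOS p53 tumours and was at least 29.9-fold lower.

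Trim71, a ubiquitin ligase and RNA-binding protein of stem cells (chromosome 9, 114511268 to 114564369), was nearly silent with the β-catenin driver, having 5.11 and 1.25 in the lucOS bcat tumours, against 1192, 818 and 1432 in the lucOS p53 tumours (log2 -8.24, SE 0.76, adjusted p = 0.00115). Syde2, a GTPase-activating protein gene, had 1.02 and 9.97 in lucOS bcat, against 2301, 1738 and 2103 in lucOS p53 tumours (log2 -8.75, SE 0.84, adjusted p = 0.00115). In both genes the 3 lucOS p53 tumours lay within a narrow band, lucOS p53 tumour 2 included. Serpina1e, an α1-antitrypsin gene, had 365 and 396 in lucOS bcat, against 74862, 47729 and 11359 in lucOS p53 tumours (log2 -6.49, SE 0.86, adjusted p = 0.0065). The Serpina1 genes are near-identical copies whose reads may be shared out unevenly, and Serpina1a, Serpina1b, Serpina1c and Serpina1d were not called (log2 0.26, -0.15, -0.49 and 0.06). Sdsl, which encodes a serine and threonine dehydratase, had 69.6 and 52.3 in lucOS bcat, against 3255, 1591 and 2049 in lucOS p53 tumours (log2 -5.16, SE 0.65, adjusted p = 0.00481). The others were Fhod3, an actin-nucleating formin gene (11.3 and 16.2 in lucOS bcat, against 739, 302 and 1438 in lucOS p53 tumours, log2 -5.56), Adcy2, an adenylate cyclase gene (1.02 and 17.4 in lucOS bcat, against 523, 296 and 237 in lucOS p53 tumours, log2 -5.77), Nckap5 (10.2 and 12.5 in lucOS bcat, against 451, 223 and 314 in lucOS p53 tumours, log2 -4.69) and Colgalt2, a collagen galactosyltransferase gene (22.5 and 14.9 in lucOS bcat, against 255, 381 and 379 in lucOS p53 tumours, log2 -4.11). The calls of all 24 genes were kept with each of the 12 tumours of the set left out in turn, the choice of these genes having used the 5 lucOS tumours. Each of those fits took part of its spread from luc tumours, without which some of the 24, such as Cyp2a5 and Kl, were not called.

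**Figure D2:**
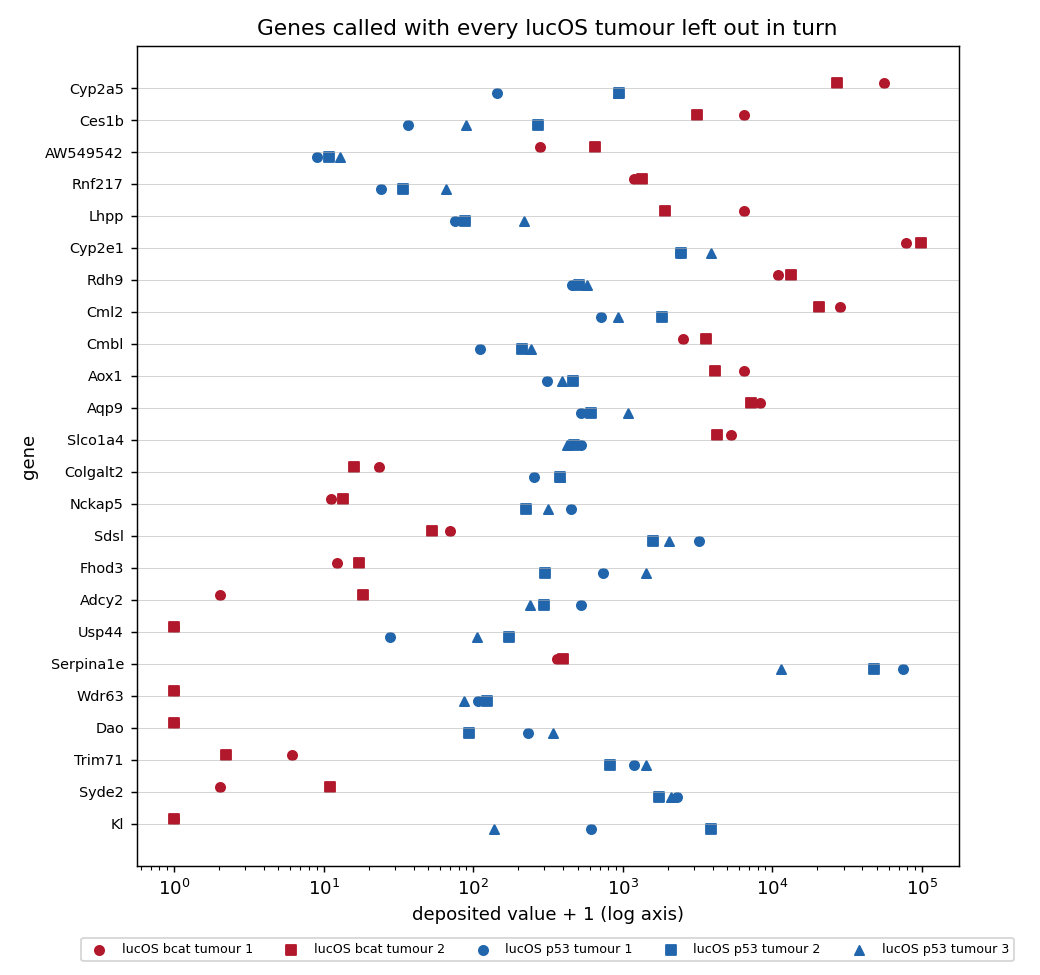
Deposited value plus 1 on a log axis for the 24 named genes called with every lucOS tumour left out, 1 row per gene. Red symbols are the 2 lucOS bcat tumours and blue symbols the 3 lucOS p53 tumours; in the upper 12 rows both red symbols lie right of all blue ones (Cyp2e1 at 77850 and 99245 against 2429 to 3896), and in the lower 12 rows left of them, with Usp44, Wdr63, Dao and Kl at 0.

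Wnt feedback and target genes were compared as a list of 14, all of which were tested. 4 rose, where 1.62% of all tested genes did, 0 fell and 10 were not called. The median log2 difference was 0.99, against -0.15 for all tested genes, and 1.68 without lucOS bcat tumour 1. Axin2, a scaffold of the complex that degrades β-catenin and a feedback inhibitor (chromosome 11, 108917828 to 108950783), had 1456 and 868 in the lucOS bcat tumours, against 29.5, 103 and 100.3 in the lucOS p53 tumours (log2 4.04, SE 0.66, adjusted p = 0.0145). Notum, a secreted enzyme that inactivates Wnt proteins, had 2056 and 2006 in lucOS bcat, against 14.3, 49.8 and 116 in lucOS p53 tumours (log2 5.50, SE 0.81, adjusted p = 0.00999). Lgr5, the R-spondin receptor of Wnt-responsive stem cells, had 579 and 371 in lucOS bcat, against 8.94, 25.9 and 46.01 in lucOS p53 tumours (log2 4.32, SE 0.79, adjusted p = 0.0207). In these 3 genes lucOS p53 tumour 1 was the lowest of all 5. Tbx3, a T-box transcription factor, had 3869 and 7942 in lucOS bcat, against 424, 1050.5 and 160.1 in lucOS p53 tumours (log2 3.74, SE 0.69, adjusted p = 0.0213). All 4 calls were lost when either lucOS bcat tumour was left out, with adjusted p between 0.0506 and 0.132, and Tbx3 also without lucOS p53 tumour 1 (0.0516).

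Not every target stood apart. Nkd1, a Dishevelled-binding inhibitor, had 23.5 and 80.98 in lucOS bcat, against 13.4, 64.7 and 50.6 in lucOS p53 tumours (log2 0.29, adjusted p = 0.875). Its groups overlapped, and the 4 luc bcat tumours had 616, 598, 159 and 544. Sp5, a transcription factor, had 135 and 11.2 in lucOS bcat, against 0, 3.98 and 4.60 in lucOS p53 tumours (log2 3.75, adjusted p = 0.0638), the first lucOS bcat tumour far above the second. Tcf7, which encodes TCF1, had 533 and 372 in lucOS bcat, against 132, 42.8 and 148 in lucOS p53 tumours, without overlap, and was not called (log2 2.23, adjusted p = 0.0577). The feedback ligase gene Rnf43 had 992 and 146 in lucOS bcat, against 149, 103 and 644 in lucOS p53 tumours. Its relative Znrf3 had 1350.2 and 812 in lucOS bcat, against 1634, 1038 and 1950.1 in lucOS p53 tumours, and both genes overlapped between the groups. Ccnd1, the cyclin D1 gene, was highest in lucOS p53 tumour 3 (1001 and 1658 in lucOS bcat, against 703, 783 and 5192 in lucOS p53 tumours), and the secreted inhibitor gene Wif1 was highest in lucOS p53 tumour 2 (37.8 and 57.3 in lucOS bcat, against 135, 1409.9 and 29.4 in lucOS p53 tumours). Both lucOS bcat tumours lay above all lucOS p53 tumours for 6 of the 14 members, which was so for 13.5% of all tested genes, and below them for 0.

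TCF/LEF factors recognise the core CTTTGAT and close variants of it, and only CTTTGAT itself was searched. The promoters of called Wnt and pericentral genes are shown to let a reader see where that core lies. RefSeq promoters on GRCm38.p6, from 250 bases before to 50 after the start of 1 RefSeq transcript, were in the table used for 4 of the 9 called members of the Wnt and pericentral lists, and 1 of these 4 held the core. For Axin2 that start lies inside the gene span given above. Axin2 and Cyp2e1 are printed as a pathway gene and a metabolic gene without it, and Lect2 as the one with it, a choice made after the search. The stretches are chr11:108920099-108920398 on the plus strand for Axin2, chr7:140763569-140763868 on the plus strand for Cyp2e1 and chr13:56548489-56548788 on the minus strand for Lect2, each written 5′ to 3′ with any core on either strand in capitals.
Axin2: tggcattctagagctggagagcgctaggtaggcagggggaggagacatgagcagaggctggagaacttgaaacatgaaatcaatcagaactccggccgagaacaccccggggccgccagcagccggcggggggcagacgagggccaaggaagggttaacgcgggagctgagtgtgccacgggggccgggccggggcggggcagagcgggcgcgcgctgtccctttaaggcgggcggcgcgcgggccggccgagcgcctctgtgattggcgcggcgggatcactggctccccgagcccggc
Cyp2e1: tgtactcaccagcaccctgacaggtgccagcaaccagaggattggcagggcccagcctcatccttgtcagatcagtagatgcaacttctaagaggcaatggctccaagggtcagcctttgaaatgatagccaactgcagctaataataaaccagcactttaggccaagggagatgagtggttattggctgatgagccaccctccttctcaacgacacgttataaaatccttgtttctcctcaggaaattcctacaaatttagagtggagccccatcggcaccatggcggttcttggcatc
Lect2: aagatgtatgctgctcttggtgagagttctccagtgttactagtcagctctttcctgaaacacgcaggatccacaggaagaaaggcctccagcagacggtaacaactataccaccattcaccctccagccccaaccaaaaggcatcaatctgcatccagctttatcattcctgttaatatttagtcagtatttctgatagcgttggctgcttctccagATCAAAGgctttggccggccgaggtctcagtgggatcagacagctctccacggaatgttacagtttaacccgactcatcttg
In Lect2 the core stood on the opposite strand, as ATCAAAG, with its last base 26 bases upstream of the start. Among all 32851 promoters in the table, 3.73% held the core on either strand, among those of tested genes 2.67%, among 264 promoters of genes called higher 2.27% and among 381 of genes called lower 1.84%. The E-box CACGTG, the core bound by Myc, which both groups carry, was in 10.2% of promoters of genes called higher, 8.66% of those called lower and 9.4% of those tested. Promoters were found for 205 of the 261 higher and 302 of the 417 lower genes. A match describes letters in this window and says nothing about binding, and a stretch without the core may still hold a variant.

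Pericentral hepatocyte genes were mostly higher in the lucOS bcat tumours. Of 14 genes, 5 rose, 0 fell and 9 were not called, with a median log2 difference of 2.72, where 1.62% of all tested genes rose. In 10 both lucOS bcat tumours lay above all lucOS p53 tumours, against 13.5% of all tested genes. Besides Cyp2e1 these were Gulo, the vitamin C synthesis enzyme (25490.3 and 25684 in lucOS bcat, against 100.1, 1251 and 1453 in lucOS p53 tumours, log2 5.49, adjusted p = 0.0164), Lect2, a secreted hepatokine (4253 and 2428 in lucOS bcat, against 17.9, 207 and 258 in lucOS p53 tumours, log2 4.999, adjusted p = 0.0258), Rhbg, an ammonium transporter (218 and 349 in lucOS bcat, against 4.47, 53.8 and 20.2 in lucOS p53 tumours, log2 3.90, adjusted p = 0.0364), and Cyp27a1, the sterol hydroxylase of bile acid synthesis (12366 and 11789 in lucOS bcat, against 3225, 3102 and 1034 in lucOS p53 tumours, log2 2.47, adjusted p = 0.0449). The pair of Gulo values in lucOS bcat tumours was almost equal, while lucOS p53 tumour 1 was far below its group. Glul, which encodes glutamine synthetase and is a classic β-catenin target of pericentral hepatocytes, had 43302 and 13203 in the lucOS bcat tumours, against 17818, 9538 and 7592 in the lucOS p53 tumours. Its groups overlapped, and it was not called (log2 1.14, adjusted p = 0.244), whereas the luc bcat tumours had 150110, 58183, 146806 and 72833 and the luc p53 tumours 5823, 7802 and 7959.7. Oat, the ornithine aminotransferase gene, had 18726 and 4796 in lucOS bcat, against 1650, 1024 and 3908 in lucOS p53 tumours without overlap (log2 2.34, adjusted p = 0.0541). Of the 5 calls only that of Cyp2e1 was kept with each tumour left out; Gulo and Lect2 lost theirs without lucOS bcat tumour 1 or 2 (adjusted p = 0.0664 to 0.0996), and Rhbg and Cyp27a1 also without lucOS p53 tumour 1 or 3 and without some luc tumours, up to 0.176.

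**Figure D3:**
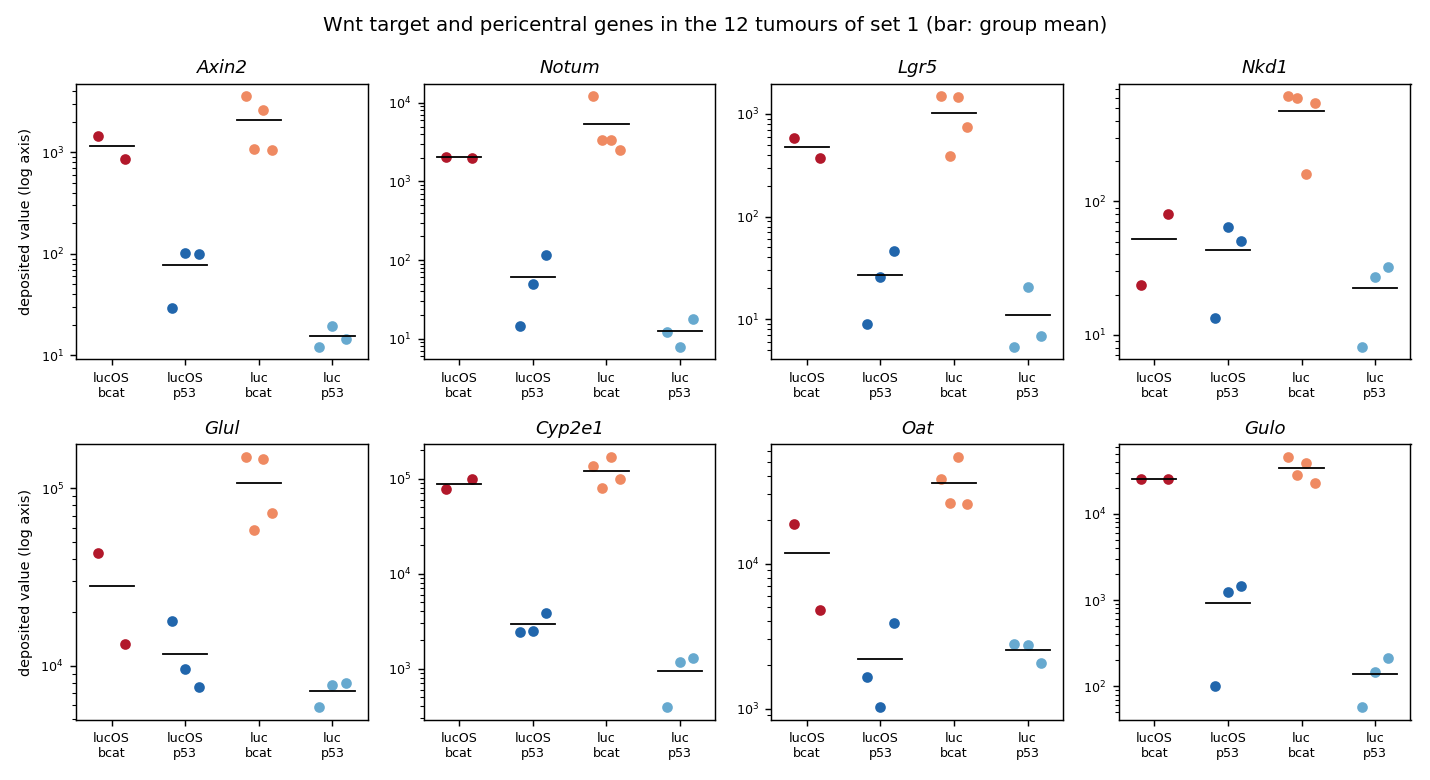
Deposited values on log axes for 4 Wnt feedback genes and 4 pericentral genes in the 12 tumours of the first set, with 1 point per tumour and a bar at the group mean. Axin2, Notum, Lgr5, Cyp2e1 and Gulo separate lucOS bcat from lucOS p53 tumours, whereas the lucOS groups overlap for Nkd1 and Glul, whose luc bcat tumours are higher.

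Among periportal genes Sds and Sdsl, which break down serine, fell, and urea cycle genes were not called. Of 16 genes 0 rose, 2 fell, where 2.59% of all tested genes did, and 14 were not called (median -0.64, and -0.31 and -1.46 without lucOS p53 tumour 1 or 3). In 7 both lucOS bcat tumours lay below all lucOS p53 tumours, which was so for 24.3% of all tested genes. Sds, the serine dehydratase that feeds serine into glucose synthesis, had 19.4 and 16.2 in the lucOS bcat tumours, against 20685, 2195 and 3802 in the lucOS p53 tumours (log2 -8.21, SE 1.33, adjusted p = 0.0145), and its close relative Sdsl is given above. The lucOS bcat values of Sds were within 4 of each other while the lucOS p53 values differed several-fold, and the call was lost without lucOS bcat tumour 1 or 2 (adjusted p = 0.0591 and 0.0801). Hal, the histidine ammonia lyase gene, had 92.1 and 227 in lucOS bcat, against 2430.3, 2017 and 1689 in lucOS p53 tumours (log2 -3.80, adjusted p = 0.0511). The liver glutaminase gene Gls2 had 364 and 1172 in lucOS bcat, against 5901, 8374 and 3601 in lucOS p53 tumours (log2 -3.10, adjusted p = 0.139), and Pigr, the immunoglobulin transport receptor gene, 285 and 214 in lucOS bcat, against 7796, 1313 and 1313 in lucOS p53 tumours (log2 -3.26, adjusted p = 0.114). Hal, Gls2 and Pigr did not overlap. Cps1, the first enzyme of the urea cycle, had 209894 and 167516 in lucOS bcat, against 254596, 223670 and 43758 in lucOS p53 tumours. Ass1, which joins citrulline and aspartate, had 38802 and 48002 in lucOS bcat, against 55748, 90068 and 17420.3 in lucOS p53 tumours. Both overlapped between the groups, as did Otc (5859 and 9137 in lucOS bcat, against 8636, 7772 and 4479 in lucOS p53 tumours) and Arg1 (3034 and 13201 in lucOS bcat, against 12439, 23514 and 2554 in lucOS p53 tumours). For Cps1 and Ass1, lucOS p53 tumour 3 was the lowest of the 5.

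Enzymes that oxidise and conjugate drugs and steroids held 8 called genes in 2 lists, all of them higher, where 1.62% of all tested genes rose. Of 20 xenobiotic P450 genes 3 rose, 0 fell and 17 were not called (median 1.76). With Cyp2a5 they were Cyp2c38 (3087 and 7280.5 in lucOS bcat, against 387, 161 and 167 in lucOS p53 tumours, log2 4.43, adjusted p = 0.0143) and Cyp2d9 (12254 and 13459.7 in lucOS bcat, against 2253, 2299 and 1109 in lucOS p53 tumours, log2 2.84, adjusted p = 0.0162), both without overlap. Cyp3a11, the main drug-oxidising P450 of mouse liver, had 103497 and 103701 in lucOS bcat, against 21457, 22250 and 5291 in lucOS p53 tumours and was not called (log2 2.93, adjusted p = 0.0682), with lucOS p53 tumour 3 far below tumours 1 and 2. Of 19 conjugation and carboxylesterase genes 5 rose, 0 fell and 14 were not called (median 1.60), and all 19 had a positive difference. Ces1f had 6686 and 3618 in lucOS bcat, against 25.03, 102 and 65.3 in lucOS p53 tumours (log2 6.45, adjusted p = 0.0162). Ces1c had 54054 and 46931 in lucOS bcat, against 6938, 13400.2 and 8492 in lucOS p53 tumours (log2 2.45, adjusted p = 0.0281). Ces2c had 2139 and 234 in lucOS bcat, against 62.6, 24.9 and 48.8 in lucOS p53 tumours (log2 4.03, adjusted p = 0.0293), where lucOS bcat tumour 1 was much higher than tumour 2. The glutathione transferase gene Gstm2 had 7902 and 7533 in lucOS bcat, against 311, 558 and 1057 in lucOS p53 tumours (log2 3.76, adjusted p = 0.0323). Ugt1a1, the bilirubin-conjugating enzyme, had 26628 and 24037 in lucOS bcat, against 10173, 8208 and 3992 in lucOS p53 tumours (log2 1.87, adjusted p = 0.0254). Ces1, Ugt1a and Gstm genes have close copies or share exons, so their reads may be divided unevenly. Apart from Cyp2a5, each of these calls was lost without lucOS bcat tumour 1 or 2 or both, with adjusted p up to 0.136. Ces1c, Ces2c and Gstm2 lost theirs without lucOS p53 tumour 1 too, and Ces1c and Ces2c without lucOS p53 tumour 3.

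Among fatty acid oxidation genes 4 rose, and among fatty acid and sterol synthesis genes 1 rose, where 1.62% of all tested genes did. All 15 oxidation genes had a positive difference, 0 fell and 11 were not called (median 1.33). In 11 the lucOS bcat tumours lay above all lucOS p53 tumours, which was so for 13.5% of all tested genes. Ehhadh, the peroxisomal bifunctional enzyme, had 15741 and 11304 in the lucOS bcat tumours, against 1680.4, 2253 and 1671 in the lucOS p53 tumours (log2 2.85, SE 0.40, adjusted p = 0.00828). Its lucOS p53 values lay within a narrow range, and the call was lost only without lucOS bcat tumour 1 (adjusted p = 0.0506). Cyp4a10, a fatty acid hydroxylase, had 2738 and 3093 in lucOS bcat, against 36.6, 114 and 494 in lucOS p53 tumours (log2 4.50, adjusted p = 0.0382). Acadl, a mitochondrial acyl-CoA dehydrogenase, had 9419.8 and 9396 in lucOS bcat, against 3369.7, 4949.6 and 6243 in lucOS p53 tumours (log2 1.0, adjusted p = 0.049). The calls of Cyp4a10 and Acadl were lost in 6 and 10 of the 12 fits that left out a tumour, with adjusted p up to 0.187. Of 14 synthesis genes only Me1, the malic enzyme that supplies NADPH, rose (18047 and 6803 in lucOS bcat, against 530, 1673 and 1549 in lucOS p53 tumours, log2 3.32, adjusted p = 0.0439), a call lost in 9 of the 12 fits, up to 0.185. Fasn, the fatty acid synthase gene, overlapped (96367 and 36354 in lucOS bcat, against 116823, 54635 and 78011 in lucOS p53 tumours, log2 -0.42). None of 15 glycolysis genes was called by limma (1 at an unadjusted p under 0.05, 0 by edgeR, 1 by DESeq2), and their median was 0.25, with Ldha, the lactate dehydrogenase gene, at 52693 and 81240.3 in lucOS bcat, against 86433, 86976 and 90036 in lucOS p53 tumours.

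Markers of hepatocytes, the cells of the labelled tissue, were present in all 5 tumours. Of 16 mature hepatocyte genes limma called 0 (median 0.58), with 3 at an unadjusted p under 0.05, against 23.6% of all tested genes; edgeR called 0 and DESeq2 1. Albumin, the main plasma protein, had 424300 and 486688 in the lucOS bcat tumours, against 151663, 232774 and 248903 in the lucOS p53 tumours, without overlap but not called (log2 1.14, adjusted p = 0.158), though DESeq2 called it (adjusted p = 0.0328). Ahsg, the fetuin gene, overlapped (188874 and 219409 in lucOS bcat, against 211136, 120025 and 103655 in lucOS p53 tumours). Of 14 hepatocyte transcription factor genes 0 were called by limma, edgeR or DESeq2 and 0 had an unadjusted p under 0.05 (median 0.09), with Hnf4a, the main regulator of hepatocyte genes, at 35128 and 22679 in lucOS bcat, against 36111, 37359.8 and 20752 in lucOS p53 tumours. Of 12 acute phase genes 1 rose, where 1.62% of all tested genes did, and 0 fell (median 0.96, and 1.49 and 0.36 without lucOS bcat tumour 1 or 2). It was the haemoglobin scavenger haptoglobin (Hp, 205301 and 158311 in lucOS bcat, against 37420, 61007 and 22415 in lucOS p53 tumours, log2 2.28, adjusted p = 0.0338). Fga, a fibrinogen chain, had 65509.8 and 183523 in lucOS bcat, against 116565, 77586 and 74627 in lucOS p53 tumours (log2 0.32, adjusted p = 0.668). The Hp call was lost without lucOS bcat tumour 1 or 2, lucOS p53 tumour 1 or 3, or luc bcat tumour 2 or 4, with adjusted p up to 0.125.

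The driver difference in p53 was also read from 22 genes that p53 activates. By limma 1 rose, where 1.62% of all tested genes did, 0 fell and 21 were not called, with a median log2 difference of 0.76 and 18 positive differences. At an unadjusted p under 0.05, 8 were higher and 1 lower, against 23.6% of all tested genes in either direction. edgeR called 3 higher and DESeq2 7, where they called 1.82% and 6.49% of all tested genes higher. In 9 both lucOS bcat tumours lay above all lucOS p53 tumours, against 13.5% of all tested genes, and in 1 below them. Ccng1, the cyclin G1 gene, had 3485 and 1914 in the lucOS bcat tumours, against 1399, 1087 and 1000.4 in the lucOS p53 tumours (log2 1.17, SE 0.26, adjusted p = 0.0389). The groups did not overlap, but the call was lost in 8 of the 12 fits that left out a tumour, with adjusted p up to 0.18. Among members not called, the death receptor gene Eda2r had 452 and 203 in lucOS bcat, against 36.6, 39.8 and 11.04 in lucOS p53 tumours (log2 3.52, adjusted p = 0.115) and the Akt inhibitor gene Phlda3 2559 and 315 in lucOS bcat, against 72.4, 126 and 127 in lucOS p53 tumours (log2 3.08, adjusted p = 0.0617), both without overlap. Mdm2, the ligase that degrades p53, had 4390.2 and 3019.8 in lucOS bcat, against 1533, 1948 and 2154 in lucOS p53 tumours without overlap (log2 0.97, adjusted p = 0.0703). Cdkn1a, which encodes p21, overlapped (4905 and 7847 in lucOS bcat, against 2164, 6459 and 2716 in lucOS p53 tumours), with lucOS p53 tumour 2 close to the lucOS bcat tumours.

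Trim71 among oncofetal genes, 4 kidney-type genes and the ductal gene Sox9 fell in the lucOS bcat tumours. Of 14 tested oncofetal genes 0 rose, Trim71 fell and 13 were not called (median -2.22, and -0.70 without lucOS bcat tumour 2). Dlk1, a fetal liver surface protein, had 52.2 and 58.6 in lucOS bcat, against 28243, 269 and 62033 in lucOS p53 tumours. lucOS p53 tumours 1 and 3 were very high and tumour 2 was not, and the difference was not called (log2 -7.11, adjusted p = 0.113). H19, the imprinted fetal RNA, had 1274300 and 1209800 in lucOS bcat, against 1593940, 1716150 and 867901 in lucOS p53 tumours (log2 -0.10, adjusted p = 0.928), and Afp, α-fetoprotein, 28542 and 1506 in lucOS bcat, against 40139.9, 89114 and 22728 in lucOS p53 tumours (log2 -2.72, adjusted p = 0.305). Both overlapped between the groups. Of 8 tested kidney-type genes 0 rose, 4 fell, where 2.59% of all tested genes did, and 4 were not called (median -5.67, or -5.51 with the genes at 0 in both lucOS bcat tumours set at their bound). Among the 12 listed, 5 had no read in either lucOS bcat tumour and could pass the filter on low values only through other tumours. For such genes a rise could not be seen, so the direction and median of this list are partly set by the filter. The list was also chosen with earlier results of these data known, so its share of calls is no independent test. Besides Kl and Dao, the genes that fell were Cdh16, the kidney cadherin (1.02 and 0 in lucOS bcat, against 463, 12.9 and 1828 in lucOS p53 tumours, adjusted p = 0.0397), and Cubn, which encodes the endocytic receptor cubilin (5.11 and 32.4 in lucOS bcat, against 4362, 103 and 3419 in lucOS p53 tumours, log2 -6.34, adjusted p = 0.035). lucOS p53 tumour 2 stood far below tumours 1 and 3 for Cdh16, Cubn and Pax8, a kidney and thyroid transcription factor (1.02 and 27.4 in lucOS bcat, against 502, 7.97 and 936 in lucOS p53 tumours, log2 -4.41, adjusted p = 0.162), yet above them for Kl. The calls of Cdh16 and Cubn were lost in 9 and 8 of the 12 fits that left out a tumour, with adjusted p up to 0.181, and edgeR did not call Cdh16 (0.0562). Of 9 tested bile duct and progenitor markers 1 fell, 0 rose and 8 were not called (median -2.06, and -1.14 without lucOS bcat tumour 1). Sox9, the ductal transcription factor, had 7.16 and 156 in lucOS bcat, against 1612, 517 and 1894 in lucOS p53 tumours (log2 -5.03, adjusted p = 0.0488), a call lost without lucOS bcat tumour 1 (adjusted p = 0.235), in 7 more of the 12 fits, under TMM (0.0567) and with edgeR (0.125). Krt19, a ductal keratin, had 1.02 and 9.97 in lucOS bcat, against 53.6, 56.8 and 1645 in lucOS p53 tumours. Spp1, osteopontin, had 143 and 2017 in lucOS bcat, against 3330.4, 1076 and 11628 in lucOS p53 tumours, with overlap, and both genes were highest in lucOS p53 tumour 3. In bulk tissue, fewer cells of a type and less RNA per cell cannot be told apart.

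Genes of cell division differed in 1 direction, and 4 of them fell. All 25 cell cycle genes had a negative difference, 4 fell, where 2.59% of all tested genes did, 0 rose and 21 were not called (median -1.21 as deposited, -1.06 under TMM and -0.70 without lucOS bcat tumour 2). In 16 both lucOS bcat tumours lay below all lucOS p53 tumours, against 24.3% of all tested genes. Top2a, the topoisomerase of dividing cells, had 6943 and 3124 in the lucOS bcat tumours, against 15791, 14103 and 20599 in the lucOS p53 tumours (log2 -1.83, SE 0.38, adjusted p = 0.0307). Ccne2, cyclin E2, had 677 and 419 in lucOS bcat, against 1649, 2709 and 2552 in lucOS p53 tumours (log2 -2.08, SE 0.35, adjusted p = 0.0154). The spindle checkpoint kinases Bub1 (1216 and 797 in lucOS bcat, against 1924, 3515 and 3195 in lucOS p53 tumours, log2 -1.50, adjusted p = 0.0468) and Bub1b (2039 and 1113 in lucOS bcat, against 3157, 4418 and 5185 in lucOS p53 tumours, log2 -1.47, adjusted p = 0.0441) also fell. lucOS bcat tumour 2 was the lower of the pair in each of these 4 genes, and each call was lost without it (adjusted p = 0.0989 to 0.244). The Top2a call was also lost without lucOS p53 tumour 1 or 3, and those of Bub1 and Bub1b in 9 and 10 of the 12 fits. TMM scaling ended the calls of Bub1 (adjusted p = 0.071) and Bub1b (0.0664), and edgeR those of Bub1 (0.0755), Bub1b (0.0789) and Top2a (0.0649). Mki67, which encodes the Ki-67 antigen, had 9829 and 4126 in lucOS bcat, against 13406, 13846 and 17417 in lucOS p53 tumours, without overlap (log2 -1.22, adjusted p = 0.163). lucOS p53 tumour 2 was the highest of the 5 for 18 of the 25 genes. Of 20 ribosome biogenesis genes 0 were called by limma, edgeR or DESeq2, and 8 were lower at an unadjusted p under 0.05, with a median of -0.57 as deposited and -0.42 under TMM, and with the nucleolin gene Ncl at 36806 and 32148 in lucOS bcat, against 53386, 54463 and 54333 in lucOS p53 tumours.

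By limma, the T cell markers Cd247 and Cd8b1 fell in the lucOS bcat tumours, in calls that hung on single tumours. Limma called no cytotoxic or NK cell gene. Of 16 T cell markers 2 fell, where 2.59% of all tested genes did, 0 rose and 14 were not called (median -1.33, and -0.67 without lucOS p53 tumour 1). In 7 both lucOS bcat tumours lay below all lucOS p53 tumours, against 24.3% of all tested genes. Cd247, the CD3 zeta signalling chain, had 245 and 201 in the lucOS bcat tumours, against 524, 584 and 671 in the lucOS p53 tumours (log2 -1.41, SE 0.26, adjusted p = 0.0214). The lucOS p53 values lay close together, and the call was lost without lucOS bcat tumour 1 or 2 or lucOS p53 tumour 3 (adjusted p up to 0.116). Cd8b1, the CD8 beta chain of killer T cells, had 1.02 and 2.49 in the lucOS bcat tumours, against 40.2, 17.9 and 9.20 in the lucOS p53 tumours (log2 -2.91, adjusted p = 0.0488). That call was lost with any 1 of the 12 tumours left out, with adjusted p up to 0.176, under TMM (0.0599) and with edgeR (0.0704). Cd3e, a CD3 chain, overlapped and was not called (11.3 and 9.97 in lucOS bcat, against 87.6, 35.8 and 8.28 in lucOS p53 tumours, log2 -1.43, adjusted p = 0.34). Cd8a, the CD8 alpha chain, had 12.3 and 8.72 in lucOS bcat, against 131, 39.8 and 24.8 in lucOS p53 tumours without overlap and was not called (log2 -2.19, adjusted p = 0.13). For both genes lucOS p53 tumour 1 was the highest and lucOS p53 tumour 3 the nearest to the lucOS bcat tumours. Cd247, by contrast, was highest in lucOS p53 tumour 3 (671), where Cd3e was lowest (8.28). Which cells the Cd247 reads came from was not tested. The T cell list summed to 599 and 473 in the lucOS bcat tumours and to 1609, 1077 and 966 in the lucOS p53 tumours, so the sums did not overlap. Without Cd247 they were 354 and 273 in the lucOS bcat tumours, against 1085, 493 and 295 in the lucOS p53 tumours, and lucOS p53 tumour 3 lay between the lucOS bcat tumours.

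None of 12 tested cytotoxic and NK cell genes was called by limma or edgeR, and DESeq2 called 2 lower. All 12 differences were negative (median -1.70), and in 8 genes both lucOS bcat tumours lay below all lucOS p53 tumours, against 24.3% of all tested genes. At an unadjusted p under 0.05, 6 of the 12 were lower, against 2476 of all 16108 tested genes lower and 23.6% in either direction. Granzyme A, a killer cell protease, had 5.11 and 7.47 in the lucOS bcat tumours, against 113, 63.7 and 13.8 in the lucOS p53 tumours (log2 -2.73, adjusted p = 0.083; 0.0107 with DESeq2). Perforin (Prf1), which opens the target membrane, had 1.02 and 3.74 in lucOS bcat, against 14.3, 10.95 and 7.36 in lucOS p53 tumours. The list summed to 88.0 and 88.5 in the lucOS bcat tumours, against 543, 326 and 159 in the lucOS p53 tumours. lucOS p53 tumour 1 was the highest of the 5 for 11 of the 12 genes and for 13 of the 16 T cell markers. Ccl5, a chemokine that draws T cells and dendritic cells (chromosome 11, 83525778 to 83530518), had 29.7 and 31.1 in the lucOS bcat tumours, against 197, 83.6 and 33.1 in the lucOS p53 tumours. The nearest values of the groups were 31.1 and 33.1, and the gene was not called (log2 -1.40, adjusted p = 0.251). Of 19 tested chemokine genes 0 were called by limma, edgeR or DESeq2 and 0 had an unadjusted p under 0.05 (median -0.64, and -0.15 and -1.44 without lucOS bcat tumour 1 or 2), Cxcl12, which guides lymphocytes, having 2691 and 2935 in lucOS bcat, against 7808, 5604 and 3591 in lucOS p53 tumours. Checkpoint and regulatory T cell genes (0 of 11 called and 0 at an unadjusted p under 0.05, median -0.80, and -0.50 without lucOS bcat tumour 1) included Foxp3, which defines regulatory T cells, at 244 and 269 in lucOS bcat, against 407, 368 and 368 in lucOS p53 tumours. In the same lucOS bcat tumours 15 T cell markers without Cd247 summed to only 354 and 273, and Foxp3 had 233 to 436 in the luc tumours. Which cells these Foxp3 reads came from was not tested. Cd274, the PD-1 ligand gene, overlapped (114 and 434 in lucOS bcat, against 322, 253 and 163 in lucOS p53 tumours).

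By limma no gene was called in the lists for antigen presentation, interferon response and myeloid or B cells, and several followed single tumours. At an unadjusted p under 0.05, 0 of the MHC class I, MHC class II and macrophage genes passed, 2 dendritic cell, 2 B cell and 3 neutrophil genes were lower, and of interferon-stimulated genes 2 were higher and 1 lower. DESeq2 called 1 dendritic cell, 2 B cell and 2 neutrophil genes lower and 2 interferon-stimulated genes higher, and edgeR called 1 gene of these lists, the antiviral gene Oasl1, higher (adjusted p = 0.0495). MHC class II genes, which serve presentation to helper T cells, had a median of -1.19 over 10 genes (-0.34 without lucOS p53 tumour 1), and their sum was 4050 and 6243 in the lucOS bcat tumours against 30980, 7087 and 5116 in the lucOS p53 tumours. Cd74, the invariant chain, had 1512 and 1438 in lucOS bcat, against 15222, 2246 and 1328 in lucOS p53 tumours, with lucOS p53 tumour 1 far above the other 4. It was the highest of the 5 for 9 of the 10 genes, and the sums of the remaining tumours overlapped. MHC class I genes had a median of -0.13 over 14 genes, which was 0.02 under TMM. Dendritic cell markers had -0.12 over 13 genes (0.01 under TMM) and macrophage markers -0.05 over 15 (0.09 under TMM). Interferon-stimulated genes had -0.18 over 24 (-0.04 under TMM and 0.03 by edgeR). Bst2, the interferon-induced tetherin, had 5402 and 3923 in lucOS bcat, against 1090.5, 2530.1 and 1570 in lucOS p53 tumours, without overlap and higher in the lucOS bcat tumours, and was not called as deposited (log2 1.50, adjusted p = 0.0536) but was under TMM (0.0464). Irf8, a factor of dendritic cells, had 444 and 977 in lucOS bcat, against 906, 899 and 481 in lucOS p53 tumours, and the macrophage complement gene C1qc 1559.9 and 3585 in lucOS bcat, against 2580.5, 3450.1 and 1974 in lucOS p53 tumours. Both overlapped. B and plasma cell markers (6 tested, median -0.92) included Igj, the joining chain of antibodies, at 13.3 and 6.23 in lucOS bcat, against 239, 28.9 and 37.7 in lucOS p53 tumours. Neutrophil markers (11 tested, median -2.16, and -0.53 without lucOS bcat tumour 1) were highest in lucOS p53 tumour 2 for 8 genes, S100a9 having 12.3 and 127 in lucOS bcat, against 129.6, 337 and 142 in lucOS p53 tumours.

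Stromal and blood genes followed single tumours. None of 15 endothelial, 13 stellate cell and fibroblast and 6 red blood cell genes was called by limma or edgeR, and DESeq2 called Slc4a1, the red cell anion exchanger, lower, the only one of the 3 lists with an unadjusted p under 0.05 (medians 0.59, 0.39 and -1.10, the last -0.23 without lucOS bcat tumour 1). lucOS bcat tumour 2 was the highest of the 5 for 11 of the endothelial and 11 of the stellate cell genes. Col1a1, a collagen of activated fibroblasts, had 3753 and 39230.4 in lucOS bcat, against 2133, 8617 and 4331 in lucOS p53 tumours. Cdh5, the vascular cadherin, had 1893 and 5553 in lucOS bcat, against 1755, 1592 and 1899 in lucOS p53 tumours. Without lucOS bcat tumour 2 the medians of the 2 lists were -0.22 and -0.77. lucOS p53 tumour 2 was the highest for 5 of the 6 red blood cell genes, with Hbb-b1, a haemoglobin chain, at 518 and 1732 in lucOS bcat, against 785, 4748 and 1069 in lucOS p53 tumours. The sum of the stellate cell list was 18282 and 139564 in the lucOS bcat tumours, against 18380, 42261 and 35938 in the lucOS p53 tumours. That of the mature hepatocyte list was 1178200 and 1146120 in the lucOS bcat tumours, against 807965, 827438 and 622115 in the lucOS p53 tumours. The part of these cell types in the gene differences above was not tested.

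**Figure D4:**
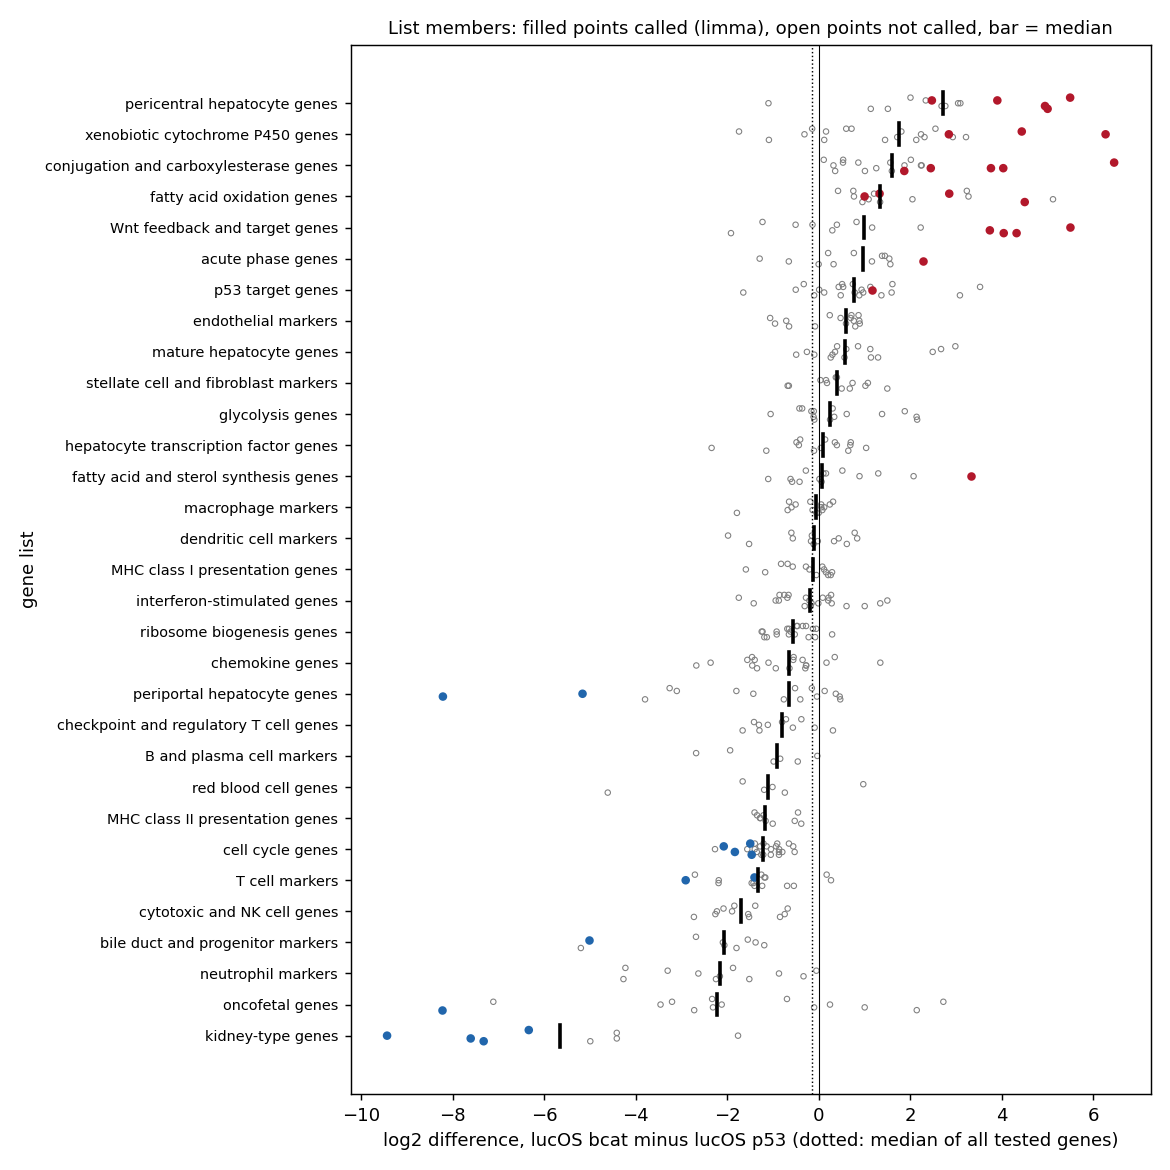
Log2 difference between lucOS bcat and lucOS p53 tumours (x axis) for the tested members of 31 gene lists (rows), with filled points for genes called by limma, open points for genes not called and a bar at the list median. The dotted line marks the median of all tested genes, -0.15; list medians run from 2.72 for pericentral genes to -5.67 for kidney-type genes, whose members Kl and Dao are at 0 in both lucOS bcat tumours and are drawn at their fitted values.

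The same driver contrast among luc tumours, which carry no antigen, used other tumours of the same set. It called 2431 genes (15.1%), with 4 tumours against 3. All 24 named genes had the same direction there and were called. Both contrasts drew on 1 shared estimate of spread, which also entered the choice of these genes, so their calls among luc tumours are not independent. The difference between the driver effects with and without the antigen was tested as an interaction: limma and edgeR called 0 genes, with 436 (2.71%) and 595 (3.69%) at an unadjusted p under 0.05, and DESeq2 called 17 (0.106%), with 867 (5.38%) unadjusted. Side by side, the list medians with and without the antigen were 0.99 and 2.98 for Wnt genes, 2.72 and 4.004 for pericentral genes, -1.21 and -0.66 for cell cycle genes and -1.70 and -1.17 for cytotoxic genes. Macrophage markers stood at -0.05 with and 1.26 without the antigen. The differences between these paired medians carry no test.

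The second set gave a test in tumours that the first did not use, with 3 lucOS bcat against 4 lucOS p53 tumours scaled in a separate table. Of the 678 called genes 657 were tested there, 650 (98.9%) had the same direction and 407 (61.9%) were also called in that direction, where 2656 of 15625 genes (17%) were called. The 407 became 243 without lucOS bcat tumour 3 of that set, and 257 and 258 without its lucOS p53 tumours 3 and 1. With TMM scaling in both sets the starting genes differed. Of 496 genes called under TMM in the first set and tested in the second, 321 were also called in that direction. Among genes not called in the first set, 72.8% had the same direction. None of the 678 was called in the opposite direction. Of the 24 named genes, all 12 higher ones and 9 of the 12 lower ones were called, Cyp2a5 at 6.46 and Trim71 at -6.51 on the log2 scale. Usp44, Adcy2 and Sdsl were not called (log2 -2.16, -2.43 and -3.01; adjusted p = 0.116, 0.261 and 0.0563). Sds, called lower in the first set, was not called either (log2 -3.83, adjusted p = 0.104), and Sox9 had nearly no difference (log2 -0.16, adjusted p = 0.918).

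Some lists that held few calls in the first set held many in the second. Cytotoxic and NK cell genes were lower for 11 of 12 (median -2.65), T cell markers for 13 of 16 (-2.19), MHC class II genes for 7 of 9 (-2.37) and interferon-stimulated genes for 10 of 24 (-1.66), where 10.9% of tested genes were called lower. Ccl5 fell there (log2 -2.60, adjusted p = 0.0162). Wnt genes were higher for 6 of 13 (median 3.06) and pericentral genes for 7 of 14 (3.25), where 6.08% were called higher, and kidney-type genes were lower for 6 of 8 (-6.51). Of 22 p53 target genes 6 were called higher and 1 lower there (median 0.32). Glul again was not called (log2 0.61, adjusted p = 0.134). In the second set 3 of the 4 lucOS p53 tumours have names beginning with AL and the rest of that comparison names beginning with JAX, so the name series and the driver are largely confounded there. Within the tumours named JAX, 3 lucOS bcat against 1 lucOS p53, whose lone sample is assumed to vary like the other groups, 615 of 627 genes called in the first set had the same direction and 10 were called.

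**Figure D5:**
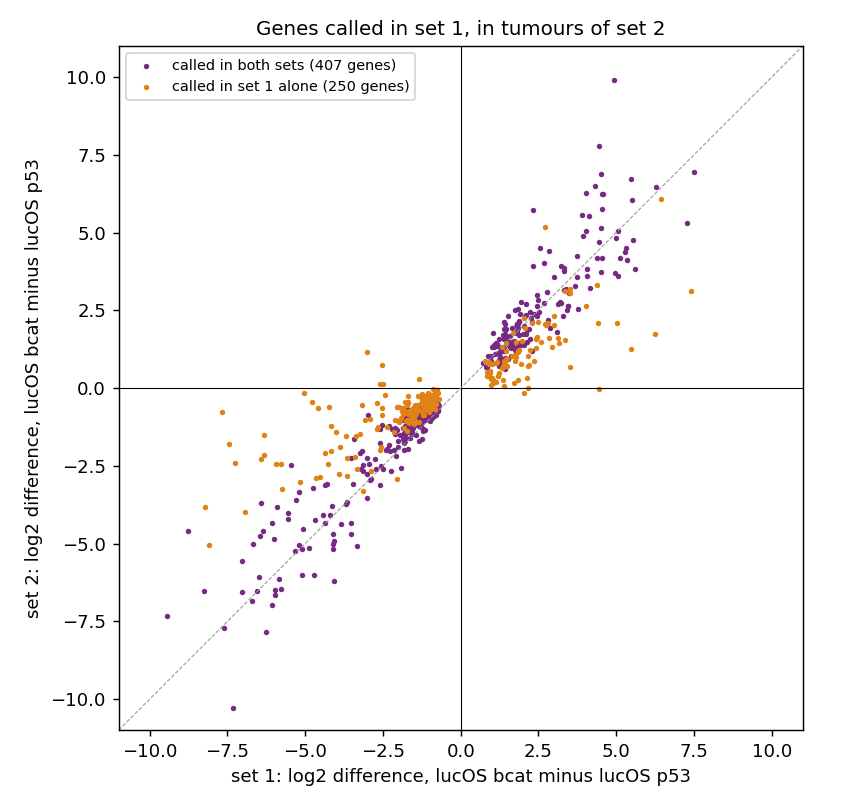
Log2 difference between lucOS bcat and lucOS p53 tumours in the second set (y axis) against that in the first set (x axis) for the 657 genes called in the first set and tested in both. Purple points are the 407 genes called in both sets and orange points the 250 called in the first alone; 650 of the points lie in the 2 quadrants of equal sign.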

How the data were processed

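Total RNA of whole tumours was sequenced from TruSeq libraries, per the labels' protocols. Per the submitters' processing notes, the authors used TopHat2, featureCounts, DESeq2 and the build mm10; versions are not given in the sources used here. The deposited values are a signal per transcript, normalized by the authors within each of 2 tables. Division by 1 factor per tumour returned whole reads for 100% of values (within 0.01). Strand use in counting is not given, so overlapping and antisense genes cannot be told apart.

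Symbols came from the description column; 53 symbols turned into dates were restored in the first table, and 27 date entries were left out of the second. Each gene was represented by its transcript of highest mean. Genes that reached 10 in 2 or more tumours (3 in the second set) were tested on log2(value + 1) with limma 3.58.1 (trend, R 4.3.3) in a fit of all 12 tumours of the first set, with Benjamini-Hochberg adjustment and calls at an adjusted p under 0.05. Fold changes on this scale understate those of low genes. The second set was fitted on its own 10 tumours. edgeR 4.0.16 (quasi-likelihood) and DESeq2 1.42.0 on the recovered reads were alternatives, beside other scalings, pseudocounts, filters and left-out tumours. The limma and edgeR fits were also run on simulated counts with planted changes. Those counts held no outlying tumour, so they do not test how single tumours move the calls here. Figures used matplotlib 3.10.9.

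Named genes were the 12 per direction of largest difference among those called with each lucOS tumour left out and averaging at least 50 in the higher group, plus up to 5 members of each list. Members, lists and this rule were chosen with earlier results of these data known, and other named genes, families and promoters after their values were seen. Shares of list members set beside those of all tested genes are therefore descriptive. Of 470 list genes 468 were matched and 452 tested; 1 gene that the rule named is counted in its list but not reported here. Gene positions and promoters are from RefSeq on GRCm38.p6, the assembly behind mm10.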

Additional observations from a re-analysis of the deposited data

Results flagged for a closer look

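In the first set the 4 luc bcat tumours were the one group with enough tumours to look for a tumour far from the others, and 8 of 28 listed genes had one. The search used deposited values, on which a single high tumour stands out more than on the log scale. All genes shared the same 4 tumours, so no share expected by chance is given, and the log scale was not tested. The lucOS groups of the first set, of 2 and 3 tumours, are too small, and the 4 lucOS p53 tumours of the second set, whose values are not given one by one, were not tested in this way. Among Wnt genes, Notum was 12165 in luc bcat tumour 1 and 2480 to 3371 in the other 3. Lef1, a partner of β-catenin at DNA, was 122 in luc bcat tumour 1 and 11.6 to 24.8 in the others. Apcdd1, a Wnt inhibitor gene, was 125 in luc bcat tumour 2 and 12.9 to 19.7 in the others. Nkd1 was low in luc bcat tumour 3, at 159 against 544 to 616 in the others, and Tbx3 was low in luc bcat tumour 4, at 1811 against 4637 to 4804. Among liver genes, Cyp1a2, the caffeine-oxidising P450, was 19943 in luc bcat tumour 1 and 5034 to 6755 in the others. Slc13a3, a dicarboxylate transporter gene, was 6997 in that tumour and 693 to 1160 in the others. Slco1b2, a bile acid and drug uptake carrier gene, was 50721 in luc bcat tumour 3 and 21097 to 25053 in the others. These tumours enter the lucOS contrast through the shared estimate of spread and not through its means.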

How the results depend on the processing

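No called gene had the opposite sign under any setting tried, while the number of calls did not hold. Against 678 calls, edgeR made 418, DESeq2 2031 and the 5 lucOS tumours alone 18, where far fewer tumours estimate the spread. For genes called higher (261), these were 1046 with DESeq2 and 11 in the lucOS tumours alone. For genes called lower (417), they were 125, 985 and 7, with 197 under TMM scaling and 245 under median centring. The share of calls that were higher was 38.5% as deposited, 61.7% under TMM, 50.4% under median centring, 70.1% with edgeR and 51.5% with DESeq2. The number lay between 485 and 711 with pseudocounts of 0.5 and 5, no filter, a filter at 50 and summed transcripts. Leaving out 1 of the 12 tumours gave 76 to 951 calls, 29 to 368 higher and 47 to 602 lower. Beside the lucOS tumours named above, it moved by over 1.5 times without luc p53 tumour 1 (376) or 3 (324) or luc bcat tumour 2 (349) or 4 (336), and for lower genes alone without luc p53 tumour 2 (272). Genes called in the first set kept their direction in the second for 643 to 647 with 1 second-set tumour left out (243 to 376 of them called), and for 494 of 496 under TMM. The interaction test called 0 genes in each limma and edgeR fit and 17 with DESeq2, an alternative chosen after seeing the data. No paired analysis was possible because the replicate numbers are accession order and mark no shared animal, litter or day.

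The genes whose sign changed were not called. TMM gave Myc 0.088, Hnf4a 0.042, Ei24 0.044, H19 0.044, Cd274 0.055, C1qc 0.010 and Stab1 0.064. Median centring gave Myc 0.0052. edgeR gave Myc 0.53, Hnf4a 0.029, Cd274 0.30, Irf8 0.043, C1qc 0.091, Cxcl16 0.023 and Stab1 0.089. DESeq2 gave Myc 0.51, Hnf4a 0.034, Cd274 0.28, Irf8 0.035, C1qc 0.083, Cxcl16 0.010 and Stab1 0.083. Leaving out 1 tumour put Myc between -1.42 and 1.31, Hnf4a between -0.42 and 0.21, Fasn between -1.12 and 0.28, Fga between -0.42 and 1.07, Ei24 between -0.41 and 0.073, H19 between -0.41 and 0.078, Cd274 between -1.05 and 0.87, Irf8 between -0.72 and 0.42, Cd22 between -1.17 and 0.24, C1qc between -0.74 and 0.46, Cxcl16 between -1.24 and 0.53, Calr between -0.053 and 0.36, Pdia3 between -0.42 and 0.0058, Ctss between -1.31 and 0.40, Stat2 between -0.15 and 0.45, Stab1 between -0.52 and 0.35, Col3a1 between -0.62 and 2.09, Col1a1 between -0.20 and 3.19 and Hbb-b1 between -1.61 and 0.13. The causes were not tested.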

Other observations

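Whole gene families among all tested genes were counted after their values had been seen. Of 81 cytochrome P450 genes 10 rose and 0 fell (median log2 0.89), where 1.62% of all tested genes rose and 2.59% fell. Beside those named above they included Cyp2d40, the fatty acid hydroxylase genes Cyp4a31 and Cyp4a32, and the cholesterol hydroxylase gene Cyp46a1. Of 18 glucuronosyltransferase genes 10 rose (median 1.80), but 8 of these are Ugt1a genes that share exons and differ by log2 1.80 to 1.87, so they are nearly 1 measurement. Of 16 carboxylesterase genes 6 rose (median 2.38), and of 12 retinol dehydrogenase genes Rdh9 and Rdh16 rose (median 0.64). Of 8 major urinary protein genes Mup2 and Mup11 rose (median 3.72). In 7 the lucOS bcat tumours lay above all lucOS p53 tumours, against 13.5% of all tested genes, although these near-identical copies share reads. On the lower side, 4 of 35 kinesin genes (Kif4, Kif12, Kif15 and Kif20a) and 2 of 19 centromere protein genes (Cenpe and Cenpi) fell and 0 rose. For 15 of the 19 centromere protein genes both lucOS bcat tumours lay below all lucOS p53 tumours, against 24.3% of all tested genes. They did so for 138 of 342 zinc finger genes named Zfp, of which 7 fell, against 2.59% of all tested genes. Among 305 solute carrier genes 10 rose and 8 fell (median -0.03).

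Single genes outside the lists, also chosen after their values were seen, differed as well. Nkx2-2, a transcription factor of neural and endocrine cells, had 237 and 48.6 in the lucOS bcat tumours, against 0, 1.99 and 0 in the lucOS p53 tumours (log2 6.24, adjusted p = 0.0266). Pkp1, a desmosome protein gene, had 1620.2 and 473 in the lucOS bcat tumours, against 0, 13.9 and 6.44 in the lucOS p53 tumours (log2 7.51, adjusted p = 0.0164). Both genes were nearly silent in the lucOS p53 tumours. The pair of lucOS bcat tumours differed several-fold in both genes, and both calls were lost without either of them (adjusted p = 0.0629 to 0.119). The Nkx2-2 call was also lost without lucOS p53 tumour 1 or 3 (0.0652 and 0.0679). In the second set Pkp1 was called in the same direction (log2 6.96, adjusted p = 0.00662) and Nkx2-2 was not called (log2 1.75, adjusted p = 0.584). Igf1, the growth factor gene, had 268 and 658 in the lucOS bcat tumours, against 6336, 4090.3 and 1943 in the lucOS p53 tumours (log2 -3.13, adjusted p = 0.0475). That call was lost without any 1 of the 5 lucOS tumours (adjusted p up to 0.195), under TMM (0.0583) and with edgeR (0.0788). The second set called it in the same direction (log2 -2.67, adjusted p = 0.00179). Erbb2, a growth factor receptor gene, had 73.6 and 213 in the lucOS bcat tumours, against 904, 516 and 2236 in the lucOS p53 tumours (log2 -3.01, adjusted p = 0.0266) and was called in the second set (log2 -3.54, adjusted p = 0.000568), while in the first set the call was lost without lucOS bcat tumour 1 or lucOS p53 tumour 1 or 3 (adjusted p up to 0.121). Cdkn2a, which encodes p16 and ARF, had 115 and 28.7 in the lucOS bcat tumours, against 3341, 239 and 5512 in the lucOS p53 tumours and was not called (log2 -4.81, adjusted p = 0.0769), with lucOS p53 tumour 2 again apart from tumours 1 and 3. Without lucOS p53 tumour 2 it was called lower (adjusted p = 0.0242). With all tumours DESeq2 called Cdkn2a lower (adjusted p = 0.000236) and edgeR did not call it (0.0871). The second set called it lower by limma (log2 -6.35, adjusted p = 0.00962).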
